A study of Mus musculus with 16 samples.

Results

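The mitotic genes described here are 35 genes whose products run chromosome condensation, spindle assembly, the spindle checkpoint, anaphase and cytokinesis. They were chosen by name and matched to the gene symbols of the authors' deposited table, with 1 probe per gene, that of the highest mean over the 16 arrays. All 35 were found, with 69 probes in all, and they make up 35 of the 30996 genes tested. Of the genes tested, 22748 have a symbol. The rest are probes without a symbol, each counted as a gene in every share of all genes given below. Each chosen probe was well above background on all 16 arrays, so no member was lost to the filter on dim probes.

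The series asks how gene expression in pancreatic tumours changes with time on ADH-503, a small molecule that activates the integrin CD11b of myeloid cells. Tumours grown in the pancreas of female C57BL/6 mice (an orthotopic model) were measured whole on 16 Agilent 1-colour arrays. The vehicle group has 6 arrays, the group treated with ADH-503 for 48 h has 5, and the group treated for 10 days has 5; the titles of the treated samples call the compound LA1. The vehicle samples carry no time, so both treated groups are set against the same 6 arrays, and whether tumour age differed between the groups is not known from the labels. The implanted tumour cells and the ages of the mice are not given in the sources used here. Nor do the labels say that samples are separate animals. The p-values therefore set differences between groups against the scatter of these samples only, and that scatter may be technical in part. All 14 ductal and tumour epithelium markers and all 16 acinar markers examined were well above background on 16 of 16 arrays.

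Cells enter mitosis when Cdk1, bound to cyclin A and then cyclin B, is activated by Cdc25 phosphatases, and they leave it when the anaphase-promoting complex marks cyclin B and securin for destruction. Most genes of this group are transcribed late in the cell cycle, through promoter elements bound by the DREAM and MuvB complexes, B-Myb, FoxM1 and NF-Y, and are nearly silent in resting cells. In a piece of tumour their summed RNA is therefore commonly read as a measure of cycling cells. In whole-tumour RNA, fewer cycling cells and less mitotic RNA per cell cannot be told apart.

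The promoters of the members share short elements that the choice of members did not use. RefSeq promoter windows on GRCm38.p6, from 250 bases before to 50 after the transcription start, were held for 29 of the 35 genes, as 31 windows; Ccna2, Aurkb, Kif20a, Tpx2, Foxm1 and Cdc25c had no entry in the table used. The letters searched on both strands were TTTGAA and TTCGAA, which are forms of the cell cycle homology region, and CCAAT, the box bound by NF-Y. No other form of that region was searched, so a window without these letters may still hold one. TTTGAA was in 24 of 31 windows, or 77.4%, against 17.9% of all 32851 windows. TTCGAA was in 3 windows, or 9.68%, against 1.56%. CCAAT was in 24 windows, or 77.4%, against 37.4% of all windows. An element of both kinds stood in 22 windows, or 71.0%, against 7.52% of all windows. Ect2 and Prc1 have a pair of overlapping windows each, so their letters count in both. By gene, 22 of 29 held TTTGAA, 22 held CCAAT and 20 held both kinds.

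The 200 bases before the start of 8 members are printed to show this arrangement, 5′ to 3′ on the gene's strand, with the searched letters in capitals on either strand. Cdk1, Top2a, Mki67, Cdc20 and Kif11 have both kinds of element. Of the letters searched, Ccnb1 has only CCAAT in this window. Ube2c and Espl1 also have both, and are shown because their signal was among those that followed the other members least closely across arrays, as described further on. In Ube2c a forward and a reverse CCAAT match overlap.
Cdk1, chr10:69352913-69353112, minus strand: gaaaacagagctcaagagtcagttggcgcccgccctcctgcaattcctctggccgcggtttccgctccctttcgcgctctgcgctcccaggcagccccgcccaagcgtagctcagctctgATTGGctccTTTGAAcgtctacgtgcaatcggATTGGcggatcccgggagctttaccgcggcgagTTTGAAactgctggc
Ccnb1, chr13:100786487-100786686, minus strand: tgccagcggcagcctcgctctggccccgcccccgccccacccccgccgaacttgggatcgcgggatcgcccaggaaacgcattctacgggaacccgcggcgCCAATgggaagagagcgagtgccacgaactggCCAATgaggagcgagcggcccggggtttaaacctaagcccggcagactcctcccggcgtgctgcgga
Top2a, chr11:99024190-99024389, minus strand: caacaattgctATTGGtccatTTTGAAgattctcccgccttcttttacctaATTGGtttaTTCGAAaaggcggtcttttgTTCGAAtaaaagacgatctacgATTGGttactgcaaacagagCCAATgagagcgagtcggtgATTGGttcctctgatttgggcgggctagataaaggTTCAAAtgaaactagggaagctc
Mki67, chr7:135716380-135716579, minus strand: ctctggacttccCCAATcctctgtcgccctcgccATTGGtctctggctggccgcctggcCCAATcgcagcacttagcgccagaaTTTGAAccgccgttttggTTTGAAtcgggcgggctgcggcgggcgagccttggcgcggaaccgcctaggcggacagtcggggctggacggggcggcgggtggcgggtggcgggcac
Cdc20, chr4:118437344-118437543, minus strand: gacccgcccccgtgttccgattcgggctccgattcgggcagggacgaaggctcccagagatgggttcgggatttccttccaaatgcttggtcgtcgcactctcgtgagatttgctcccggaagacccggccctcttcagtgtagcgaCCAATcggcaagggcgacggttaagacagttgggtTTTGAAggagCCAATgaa
Kif11, chr19:37376182-37376381, plus strand: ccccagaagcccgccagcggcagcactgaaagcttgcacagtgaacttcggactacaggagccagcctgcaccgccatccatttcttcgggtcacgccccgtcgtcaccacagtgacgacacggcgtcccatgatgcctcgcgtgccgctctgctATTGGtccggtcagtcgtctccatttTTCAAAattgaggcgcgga
Ube2c, chr2:164769729-164769928, plus strand: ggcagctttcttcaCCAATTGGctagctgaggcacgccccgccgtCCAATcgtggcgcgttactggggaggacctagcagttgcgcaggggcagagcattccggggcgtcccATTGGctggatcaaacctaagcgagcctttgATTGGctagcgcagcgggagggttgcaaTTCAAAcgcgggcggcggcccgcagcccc
Espl1, chr15:102296093-102296292, plus strand: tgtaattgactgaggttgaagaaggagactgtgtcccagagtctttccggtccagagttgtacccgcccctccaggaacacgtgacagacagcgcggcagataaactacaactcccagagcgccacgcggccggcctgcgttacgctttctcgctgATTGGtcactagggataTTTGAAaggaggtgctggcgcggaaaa

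A match describes letters and does not show binding. Of the 35 matches to TTTGAA or TTCGAA, 24 began within 50 bases of the start. CCAAT matches numbered 54, of which 52 lay upstream of the start and 38 began 10 to 120 bases upstream. Matches were counted per window, so sites in the overlapping windows of Ect2 and of Prc1 were counted more than once. Top2a carried matches of both kinds along most of the printed stretch, while Kif11 and Espl1 each had a single CCAAT match followed by a single TTTGAA match close to the start.

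**Figure D1:**
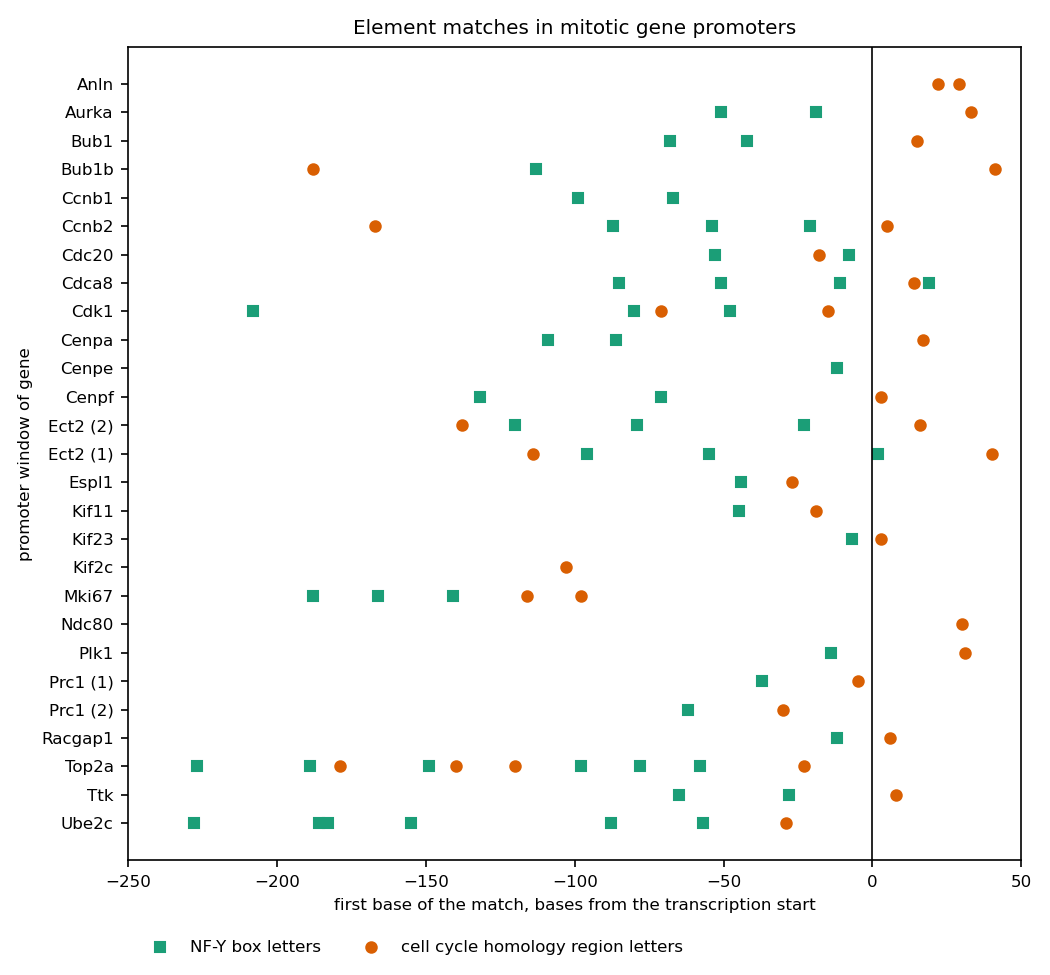
Positions of element matches in the 27 promoter windows of members that hold at least 1 match, with the distance of the match's first base from the transcription start on the x axis (bases) and a row per window; Ect2 and Prc1 have a pair of windows each. Squares are CCAAT matches and circles TTTGAA or TTCGAA matches; 52 of 54 squares lie upstream, and 24 of 35 circles lie within 50 bases of the start.

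Before groups are compared, the arrays themselves differed in the level of all mitotic genes together. Values are log2 processed signal relative to each array's 75th percentile, so that a difference of 1 is a doubling, and levels of different genes are not comparable because their probes differ. The mean over the 35 genes ran from -0.41 to 0.07 in vehicle, with a median of -0.32. The 48 h arrays had means of -0.17, -0.31, -0.14, -0.58 and -0.28, and the 10 day arrays -0.63, -0.60, -0.18, -0.21 and -0.44. Highest of all was vehicle replicate 1, where 2 of 35 genes lay below their own mean over 16 arrays. Lowest were 10 days replicates 1 and 2 and 48 h replicate 4, where 32, 31 and 31 genes lay below it. From the lowest to the highest array the mean spanned 0.70, or 1.62-fold.

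**Figure D2:**
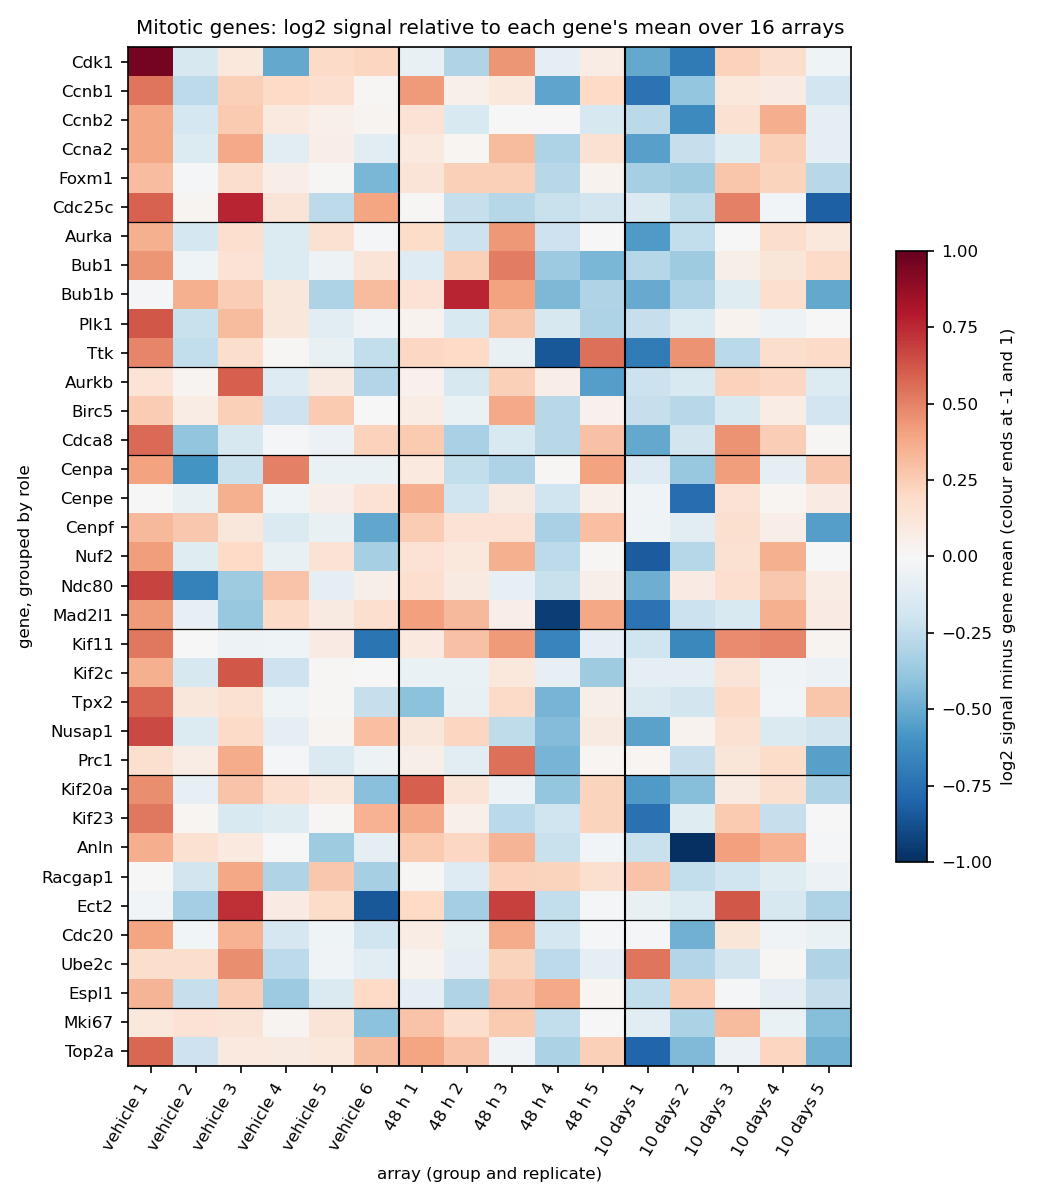
Log2 signal of each of the 35 mitotic genes minus that gene's mean over 16 arrays, by array (x axis, group and replicate) and gene (y axis, grouped by role), with red above and blue below the mean and the colour scale ending at -1 and 1. Vehicle replicate 1 is red and 48 h replicate 4 and 10 days replicates 1 and 2 are blue for most genes.

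By group, the array mean of the members was -0.25 ± 0.19 (SD, n = 6) in vehicle, -0.30 ± 0.18 (n = 5) at 48 h and -0.41 ± 0.21 (n = 5) at 10 days. The 3 groups overlapped, and the differences between their means were smaller than the SD within any group. Slide moved with the vehicle level: vehicle replicate 1, at 0.07, was the only vehicle array on slide 1, and the 5 on slide 2 averaged -0.31. The 48 h arrays averaged -0.30 on slide 1 (4 arrays) and -0.28 on slide 2 (1 array). The 10 day arrays averaged -0.47 on slide 1 (3 arrays) and -0.33 on slide 2 (2 arrays). The highest array, vehicle replicate 1, and the lowest, 10 days replicates 1 and 2 and 48 h replicate 4, were all on slide 1. Array means on slide 2 ran from -0.44 to -0.11. The part of slide in the vehicle level was not tested, since 1 vehicle array on slide 1 does not separate slide from sample.

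**Figure D3:**
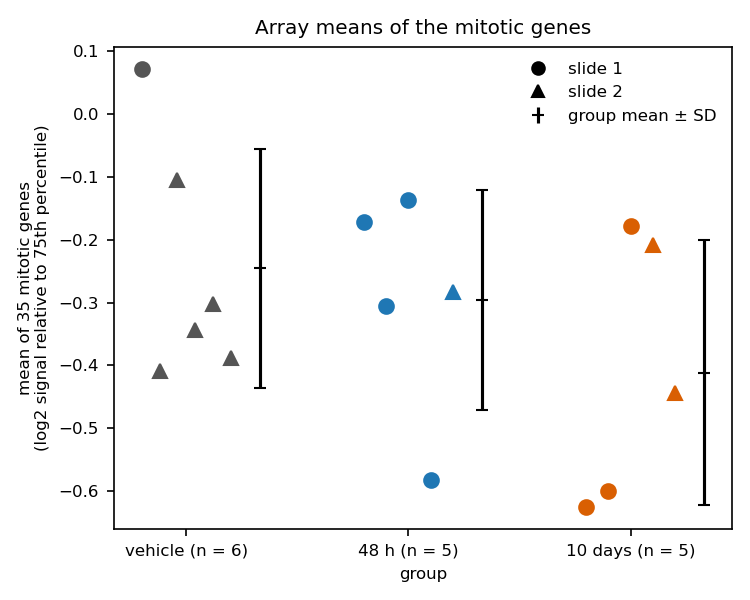
Mean log2 signal of the 35 mitotic genes (y axis, relative to each array's 75th percentile) by group (x axis), 1 point per array, with circles for slide 1, triangles for slide 2 and bars for the group mean ± SD. The groups overlap, and the highest point, vehicle replicate 1 at 0.07, is the only vehicle circle.

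At 10 days against vehicle, no mitotic gene passed an adjusted p of 0.05 (limma, Benjamini-Hochberg over all genes tested), and neither did any of the 30996 genes, so percent called was 0 for both. The log2 fold change was below 0 for 31 of 35 members, where 52% of all genes tested were below 0. Their median was -0.155, against -0.0086 over all genes, and the members ran from -0.47 to 0.066. The median SE of a member was 0.173, which is larger than the median difference. At an unadjusted p of 0.05, 1 member was lower and 0 higher, against 1.78% and 1.76% of all genes. In no member were the 10 day and vehicle arrays free of overlap, against 0.0936% of all genes lower and 0.116% higher without overlap.

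Top2a, the topoisomerase that untangles sister chromatids, had the smallest p of the members at 10 days. Its probe lies at chr11:98854651-98854710 on mm9, minus strand. The log2 signal was -0.88 to -0.10 in vehicle (median -0.57), against -0.28, -0.39, -0.71, -0.99 and -0.43 at 48 h and -1.47, -1.11, -0.73, -0.46 and -1.15 at 10 days. The lowest arrays were 10 days replicates 1, 5 and 2, while 10 days replicates 3 and 4 lay inside the vehicle range. The log2 fold change was -0.47 ± 0.19 (SE), with a 95% interval of -0.87 to -0.07, an unadjusted p of 0.024 and an adjusted p of 1 in limma, and 4 of 5 arrays were below the vehicle mean. A second Top2a probe, which followed the chosen probe at r = 0.95 over the 16 arrays, had a log2 fold change of -0.54, and the remaining Top2a probes, with r = 0.03 and 0.36, had -0.17 and -0.20. Without vehicle replicate 1 the chosen probe stood at -0.39, and without 10 days replicate 1 at -0.35.

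Mki67, the proliferation antigen that coats mitotic chromosomes, is grouped with Top2a under chromosome structure. Its log2 signal was 0.42 to 0.97 in vehicle (median 0.94), against 1.11, 1.004, 1.09, 0.58 and 0.82 at 48 h and 0.72, 0.51, 1.14, 0.76 and 0.40 at 10 days. The groups overlapped throughout, and vehicle replicate 6 was close to the lowest 10 day array. The log2 fold change of Mki67 at 10 days was -0.14 ± 0.15 (SE).

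All 6 members of the cyclin-CDK and entry class had log2 fold changes below 0 at 10 days, with a median of -0.27 and a range of -0.42 to -0.11. Cdk1, the kinase that drives mitotic entry, had a log2 signal of -2.50 to -1.04 in vehicle (median -1.84), against -2.06, -2.29, -1.55, -2.08 and -1.92 at 48 h and -2.50, -2.70, -1.76, -1.82 and -2.04 at 10 days. The highest Cdk1 value by far was vehicle replicate 1, and 10 days replicate 2 and, narrowly, replicate 1 were below the vehicle range. Its log2 fold change was -0.30 ± 0.24 (SE). Cyclin B1, Ccnb1, had 1.41 to 2.21 in vehicle (median 1.86), against 2.10, 1.72, 1.78, 1.15 and 1.87 at 48 h and 0.94, 1.29, 1.78, 1.76 and 1.48 at 10 days. All 5 arrays at 10 days were below the vehicle mean, and 3 of them lay inside the vehicle range. The log2 fold change of Ccnb1 was -0.37 ± 0.19 (SE, unadjusted p = 0.069), and its 3 other probes had values of -0.21, -0.38 and -0.22.

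Cdc25c, a phosphatase that activates Cdk1, had a log2 signal of -3.23 to -2.20 in vehicle (median -2.70), against -2.95, -3.19, -3.25, -3.18 and -3.14 at 48 h and -3.11, -3.22, -2.46, -2.99 and -3.78 at 10 days. In all, 4 of 5 arrays at 10 days lay inside the vehicle range, and replicate 5 was below it. Its log2 fold change at 10 days was -0.42 ± 0.21 (SE, unadjusted p = 0.065). Foxm1, the transcription factor of many mitotic genes, had 0.37 to 1.13 in vehicle (median 0.86), against 0.95, 1.06, 1.06, 0.55 and 0.86 at 48 h and 0.49, 0.47, 1.10, 1.05 and 0.55 at 10 days. Every treated Foxm1 value lay within the vehicle range, and its log2 fold change at 10 days was -0.11 ± 0.16 (SE). These are values of the chosen probe. The other Foxm1 probes had -0.37 (r = 0.78 with the chosen probe) and 0.35 (r = -0.08). The cyclins Ccnb2 and Ccna2 had log2 fold changes of -0.20 and -0.23.

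Among the mitotic kinases all 5 log2 fold changes at 10 days were below 0, with a median of -0.17. Aurka, the kinase of spindle poles, had a log2 signal of -0.49 to 0.05 in vehicle (median -0.24), against -0.12, -0.52, 0.12, -0.51 and -0.30 at 48 h and -0.87, -0.56, -0.31, -0.13 and -0.20 at 10 days. Below the vehicle range lay 10 days replicates 1 and 2 and, narrowly, 48 h replicates 2 and 4. Plk1, the polo-like kinase of spindle assembly and mitotic exit, had -1.19 to -0.35 in vehicle (median -0.92), against -0.93, -1.12, -0.69, -1.12 and -1.27 at 48 h and -1.20, -1.10, -0.93, -1.02 and -0.97 at 10 days. Vehicle replicate 1 stood apart at the top, and 1 of the 5 arrays at 10 days was below the lowest vehicle array, by less than the SD within either group. The checkpoint kinase Bub1b had -2.26 to -1.59 in vehicle (median -1.77), against -1.80, -1.19, -1.54, -2.40 and -2.25 at 48 h and -2.45, -2.26, -2.07, -1.78 and -2.46 at 10 days. Replicates 1, 5 and, narrowly, 2 at 10 days were below the vehicle range. The log2 fold changes at 10 days were -0.17 for Aurka, -0.19 for Plk1, -0.38 ± 0.21 (SE) for Bub1b, -0.14 for the checkpoint kinase Bub1 and -0.05 for Ttk, which loads the checkpoint at kinetochores. A second Bub1 probe ran against the chosen one, with r = -0.50 and a log2 fold change of 0.23. Other Ttk probes above background on at least 5 arrays had -0.33 (r = 0.15 with the chosen probe) and -0.25 (r = -0.16).

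The chromosomal passengers sit at centromeres and then at the midzone of the spindle. Birc5, or survivin, the subunit that targets the complex, had a log2 signal of 1.88 to 2.35 in vehicle (median 2.24), against 2.16, 2.02, 2.46, 1.81 and 2.13 at 48 h and 1.85, 1.81, 1.93, 2.16 and 1.89 at 10 days. All 5 arrays at 10 days were below the vehicle mean, yet 3 lay inside the vehicle range. Its log2 fold change was -0.26 ± 0.13 (SE, unadjusted p = 0.055). The complex's kinase Aurkb and its subunit Cdca8 had -0.08 and -0.02. Another Aurkb probe had -0.46 (r = 0.33 with the chosen probe), and another Cdca8 probe -0.22 (r = 0.61).

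Of the genes for kinetochores and the checkpoint, 4 of 6 had values below 0 at 10 days, with a median of -0.12. The outer kinetochore subunits Nuf2 and Ndc80, partners in 1 complex, had -0.16 and 0.04. The centromeric histone Cenpa had 0.03 and the motor Cenpe -0.19. Cenpf was at -0.09 and the checkpoint protein Mad2l1 at -0.20. The size of the difference was above its SE for Cenpe alone among these 6 (SE 0.16).

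Spindle motors and bundlers had values below 0 for 4 of 5 genes at 10 days. Nusap1, which bundles spindle microtubules, had a log2 signal of -0.74 to 0.06 in vehicle (median -0.49), against -0.49, -0.39, -0.86, -1.03 and -0.51 at 48 h and -1.14, -0.57, -0.45, -0.74 and -0.78 at 10 days. All 5 of its 10 day arrays were below the vehicle mean, and its log2 fold change was -0.30 ± 0.17 (SE). Kif11, the motor that separates spindle poles, had the highest value of all members, 0.07 ± 0.25 (SE). Prc1, the midzone bundler, had -0.16, Kif2c, the microtubule depolymerase at centromeres, -0.13, and Tpx2, the activator of Aurka on the spindle, -0.08.

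Cytokinesis genes had values below 0 at 10 days for 4 of 5. Kif20a, the midzone motor, had -2.59 to -1.71 in vehicle (median -2.04), against -1.58, -2.05, -2.23, -2.56 and -1.95 at 48 h and -2.74, -2.60, -2.09, -2.02 and -2.47 at 10 days. Its log2 fold change was -0.30 ± 0.20 (SE), and 3 of 5 arrays were below the vehicle mean. Kif23, the motor of centralspindlin, had -0.27, and its partner Racgap1 -0.04. Other probes above background on at least 5 arrays had -0.17 and 0.29 for Kif23 and -0.21 and -0.32 for Racgap1. Anln, the scaffold of the contractile ring, had -0.17, and Ect2, which activates RhoA at the division plane, 0.02.

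All 3 anaphase genes had values below 0 at 10 days. Cdc20, which activates the anaphase-promoting complex, had 2.05 to 2.64 in vehicle (median 2.21), against 2.32, 2.17, 2.62, 2.07 and 2.24 at 48 h and 2.24, 1.77, 2.37, 2.22 and 2.18 at 10 days. Apart from 10 days replicate 2, every treated value lay within the vehicle range. The log2 fold changes were -0.14 for Cdc20, -0.11 for Ube2c, the complex's ubiquitin-conjugating enzyme, and -0.07 for Espl1, the separase that cuts cohesin.

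At 48 h against vehicle, 24 of 35 members had a log2 fold change below 0, where 53.3% of all genes did. The median was -0.025, against -0.013 over all genes, and the members ran from -0.46 to 0.12. With each array's median in place of its 75th percentile, 17 of 35 and 42.0% of all genes were below 0, and the members' median was 0.022. No member and no other gene passed the adjusted threshold, so percent called was 0. Unadjusted p-values were under 0.05 for 1 member lower and 0 higher, against 1.69% and 0.865% of all genes. No member had groups without overlap, against 0.071% of all genes in each direction.

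The member with the smallest p at 48 h was Cdc25c, whose 5 arrays, given with the 10 day values, all lay below the vehicle mean and inside the vehicle range apart from replicate 3. Its log2 fold change was -0.46 ± 0.21 (SE), with a 95% interval of -0.91 to -0.0044, an unadjusted p of 0.048 and an adjusted p of 1 in limma. Tpx2 had a log2 signal of -0.93 to -0.11 in vehicle (median -0.63), against -1.10, -0.77, -0.51, -1.16 and -0.64 at 48 h and -0.84, -0.88, -0.50, -0.72 and -0.42 at 10 days. Replicates 1 and 4 at 48 h were below every vehicle array, and its log2 fold change was -0.24 ± 0.16 (SE). Kif2c had 0.37 to 1.20 in vehicle (median 0.59), against 0.51, 0.51, 0.68, 0.49 and 0.22 at 48 h and 0.48, 0.48, 0.71, 0.55 and 0.52 at 10 days. Vehicle replicates 3 and 1 were its highest arrays, and its log2 fold change at 48 h was -0.20 ± 0.14 (SE). The other Kif2c probe, with r = 0.455 to the chosen one, had 0.11 at 48 h.

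Nusap1 and Plk1 followed, with log2 fold changes at 48 h of -0.21 and -0.18, and all 5 mitotic kinases had values below 0. By their chosen probes, cytokinesis genes had 1 of 5 values below 0, with a median of 0.09. Racgap1, at 0.12, had the highest value of all members. These signs depended on the probe. Other probes well above background on all 16 arrays had 0.002 and -0.30 for Racgap1, -0.16 for Anln and -0.16 for Ect2. For Kif23 they had -0.13 and 0.09. Mki67 and Foxm1 were at 0.07 and 0.06, Top2a at -0.05, Cdk1 at -0.12, Ccnb1 at -0.10, Aurka at -0.02 and Cdc20 at -0.01. The 95% intervals over the members reached from -0.91 to 0.64 at 48 h and from -0.87 to 0.60 at 10 days, and the number of arrays limits this precision.

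**Figure D4:**
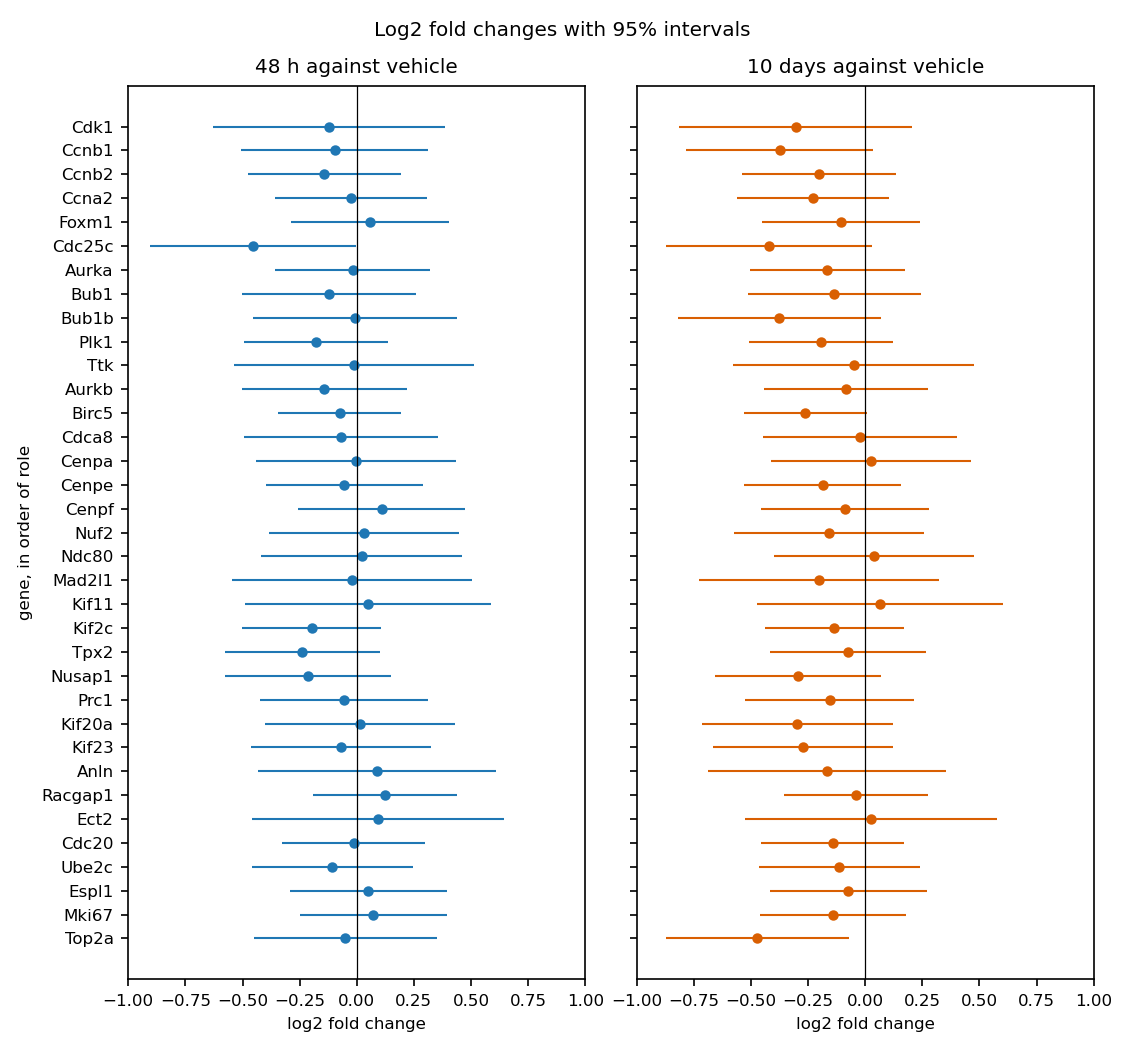
Log2 fold change of each of the 35 mitotic genes (points) with its 95% interval (lines) at 48 h (left) and 10 days (right) against the same 6 vehicle arrays, in order of role. The points lie below 0 for 24 members at 48 h and 31 at 10 days, and the interval leaves out 0 for Cdc25c at 48 h and Top2a at 10 days.

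At 10 days against 48 h, a difference that leaves out the vehicle means, 27 of 35 members had a log2 fold change below 0, where 48.8% of all genes did. The median was -0.129, against 0.0052 over all genes. Again 0 members and 0 genes passed the adjusted threshold, for a percent called of 0. Unadjusted p-values were under 0.05 for 1 member lower, against 1.17% of all genes, and for 0 higher, against 2.32%. No member had groups without overlap, against 0.142% of all genes lower and 0.371% higher. Top2a had the smallest p, with a log2 fold change of -0.42 ± 0.20 (SE, unadjusted p = 0.049, adjusted p = 0.9999 in limma). It was followed by Bub1b at -0.37, Kif20a at -0.31, Birc5 at -0.19 and Ccnb1 at -0.28. Tpx2 was the highest, at 0.16 ± 0.17 (SE).

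The medians were also taken with slide as a block and on each slide alone. With the block the member median was -0.168 at 10 days, -0.054 at 48 h and -0.107 between the treated groups. Within slide 1, with vehicle replicate 1 as the only control, the median was -0.630 at 10 days and -0.376 at 48 h, and over all genes 0.131 and 0.072. Within slide 2, with 5 controls and 2 arrays at 10 days, the member median was -0.040, against -0.050 over all genes, and 20 of 35 members were below 0, where 55.8% of all genes were. The member median was not below that of all genes on that slide. The 48 h group has 1 array on slide 2. Its member median there was 0.050, against -0.040 over all genes, and 12 of 35 members were below 0, where 54.2% of all genes were. Without vehicle replicate 1, 28 members were below 0 at 10 days, with a median of -0.093. Of all genes 55.9% were, with a median of -0.025. At 48 h without that array, 14 members were below 0, with a median of 0.039, against 56.5% and -0.032 over all genes. Without 48 h replicate 4 the 48 h count was also 14, with a median of 0.044, against 53.5% and -0.016 over all genes. The 10 day median was -0.129 without 10 days replicate 1 and -0.118 without replicate 2, against -0.026 and -0.0059 over all genes.

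Across the 16 arrays the mitotic genes moved together. Over their 595 pairs the median Pearson r was 0.41, and 91.4% of pairs were above 0, against a median of 0.025 and 52.9% over all pairs of genes tested. After group means were removed the members' median was 0.40. Arrays share slide, scaling and tissue makeup, and these values are a description. With the mean of the other members, 26 of 35 genes had r over 0.5 and 13 over 0.7, led by Ccnb1 at 0.90, Ccna2 at 0.89, Nuf2 at 0.85 and Foxm1 at 0.84. Those with r under 0.3 were Racgap1 at 0.07, Espl1 at 0.17, Ube2c at 0.24 and Cenpa at 0.26. Their low r was not shared by both slides. On slides 1 and 2, Racgap1 had -0.19 and 0.60, Espl1 0.10 and 0.50, Ube2c 0.11 and 0.66, and Cenpa 0.54 and -0.20. Lowest on slide 2 were Kif23 at -0.52 and Mad2l1 at -0.33. The median r with the other members was 0.79 on slide 1, which holds the arrays of highest and lowest mean over the members, and 0.50 on slide 2.

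The promoter windows of Racgap1, Espl1, Ube2c and Cenpa all held both kinds of element. Over the 16 arrays together, the lowest r among genes without both was 0.47, for Ndc80. The median r was 0.63 for the 20 genes with both kinds of searched letters in a window and 0.65 for the 9 without. The range of a member over the 16 arrays ran from 0.66 for Birc5 to 1.66 for Cdk1, with a median of 1.10. Other probes of the members gave a check on single genes: 19 members had more than 1 probe, and 30 of the 34 other probes were above background on at least 5 arrays. Their median r with the chosen probe was 0.45. Of these 30, 25 had log2 fold changes below 0 at 10 days and 18 at 48 h. The sign was that of the chosen probe for 24 at 10 days and 14 at 48 h. Those of the other sign at 10 days were probes of Foxm1 (0.35), Kif23 (0.29), Bub1 (0.23), Nuf2 (0.17), Prc1 (0.09) and Ect2 (-0.28).

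Genes of the cell cycle that are not members were taken from 4 lists. The array mean of 69 other mitotic genes followed that of the members with r = 0.96 and rho = 0.94 over 16 arrays, 0.96 and 0.95 within slides 1 and 2. Of these, 52 of 69 had log2 fold changes below 0 at 10 days, with a median of -0.15, and 34 at 48 h. The lowest p at 10 days was that of Nek2, a centrosome kinase, at -0.68 ± 0.31 (SE). The mean of 45 S phase genes followed the members with r = 0.74 and rho = 0.71, or r = 0.56 without the 2 arrays farthest from its median, and 0.90 and 0.40 within slides. At 10 days 40 of the 45 were below 0, with a median of -0.13, among them Mcm5, a helicase subunit, at -0.62 ± 0.22 (SE), Brca1, a repair gene, at -0.36, Cdc45 at -0.39 and Mcm10 at -0.40. At 48 h 23 of 45 were below 0. No gene of these lists passed the adjusted threshold.

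G1 cyclins, CDKs and CDK inhibitors followed the members less closely, with r = 0.32. At 10 days 14 of 16 had values below 0, while Cdkn1c, the CDK inhibitor p57, was at 0.57 ± 0.26 (SE). The 15 transcription factors of mitotic promoters, among them Mybl2, the Lin and NF-Y subunits and E2f factors, had r = 0.17, with 9 below 0 at 10 days and 7 at 48 h. E2f7, a repressor, was at -0.29 ± 0.13 (SE) at 48 h.

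Array means of 10 cell type marker lists had r with the members' mean from -0.09 for macrophage genes to 0.43 for erythroid and islet genes; their part in the results was not tested. Erythroid genes had r = 0.44 without the 2 arrays farthest from their median and 0.61 and 0.64 within slides 1 and 2, while islet genes had 0.04 without 2 arrays. All 9 erythroid genes had log2 fold changes below 0 at 48 h (median -0.75) and at 10 days (median -1.16). At 10 days 4 of them were lower at an unadjusted p under 0.05 in limma, against 1.78% of all genes. None of the 9 passed the adjusted threshold. Their array means ran from -3.85 to -0.83 in vehicle, from -4.66 to -2.77 at 48 h and from -4.52 to -3.62 at 10 days, and 5 of the 9 were well above background on all 16 arrays. Ductal and tumour epithelium genes had r = 0.23. Their array means ran from -0.41 to 1.41 in vehicle, from -1.19 to 1.32 at 48 h and from -1.32 to 0.63 at 10 days, with 13 of 14 log2 fold changes below 0 at 10 days and a median of -0.48. Acinar genes, with r = 0.10, ran from 0.02 to 1.74 in vehicle, 1.42 to 2.21 at 48 h and -0.27 to 2.19 at 10 days. Against vehicle, 15 of 16 were higher at 48 h (median 0.98) and 13 lower at 10 days (median -0.14). At 10 days against 48 h, 15 of 16 were lower, with a median of -1.23, where 48.8% of all genes were lower. Of the 16, 13 were lower at an unadjusted p under 0.05 in limma, against 1.17% of all genes. None of the acinar genes passed the adjusted threshold. Granulocyte genes, with r = 0.21, had 9 of 9 values below 0 at 10 days and a median of -0.77. Of the markers, Tek, an endothelial receptor, was well above background on 0 of 16 arrays. The array's 75th percentile of signal had r = 0.18 with the members' mean.

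**Figure D5:**
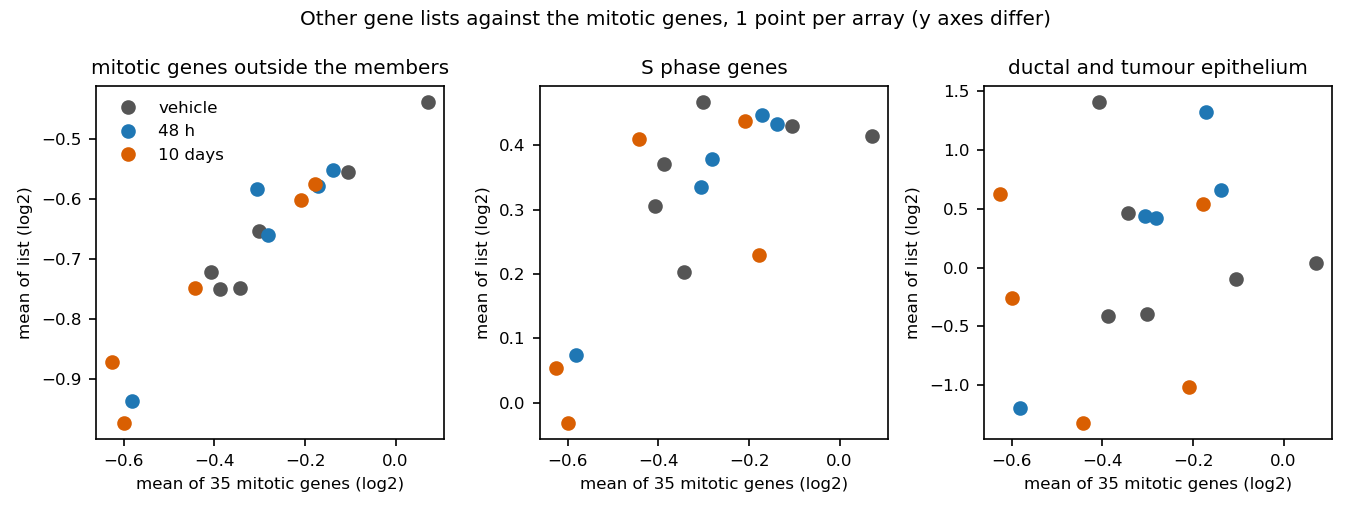
Array means (log2 signal) of 69 other mitotic genes, 45 S phase genes and 14 ductal and tumour epithelium genes (y axes, which differ) against the mean of the 35 mitotic genes (x axis), 1 point per array, coloured by group. The points follow a line for the other mitotic genes (r = 0.96), less closely for S phase genes (r = 0.74) and spread widely for the epithelium genes (r = 0.23).

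The tested genes outside the members whose pattern was most like the members' array mean, by Pearson r over 16 arrays, were taken as the top 15. Those with a symbol were Cdca3 at 0.87, Gm5593 at 0.85, Ncapg at 0.84, Slc25a13 at 0.81, Cdkn3 at 0.78, and Parpbp, Cenpm and Gins2 at 0.77. Cdca3, Ncapg, Cdkn3 and Cenpm stand in the list of other mitotic genes and Gins2 in that of S phase genes. The remaining 7 were probes without a symbol in the deposited table.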

How the data were processed

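RNA of 16 tumour samples was measured on 1-colour Agilent 8x60K mouse arrays (Cy5). The submitters' processing notes name Agilent Feature Extraction 11.5.1.1 for reading the scans. The processed signal is an intensity from which background was subtracted, per the file headers, while the mean signal and local background are raw; positions of probes are on mm9. The authors also deposited log2 values that are quantile-normalized; each column correlated at r = 0.9984 or more with its own array. Gene symbols came from that table, and it was an alternative source of values.

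Of 59305 spots that are no controls, outlier spots were left out and spots of 1 probe averaged, giving 56605 probes. Each array's 75th percentile of log2 signal was subtracted; it stood at 4953 to 6736 on the linear scale. On each array 74.9% to 81.2% of probes were well above background, and 0 spots were saturated. The probe of highest mean stood for its gene, and a probe without a symbol stood for itself. In all, 30996 genes were tested, those well above background on at least 5 of 16 arrays, and 22748 of them had a symbol. The number of arrays limits the precision.

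Groups came from the treatment and time labels. The 3 groups were fitted in 1 limma 3.58.1 model (R 4.3.3) with robust eBayes and no covariates, with 2-sided p-values, Benjamini-Hochberg adjustment across the 30996 genes and a threshold of 0.05. The script was tested on simulated data. Named members are 8 fixed genes and the 5 with the smallest p in each of the 3 comparisons; list genes named are up to 4 with the smallest p, and 1 gene taken by this rule is left out of the text. The members, the lists and the tests were chosen with earlier results of these data known. Alternatives covered scaling, background correction, the dim filter, the choice of probe, slide, eBayes settings and leaving out arrays, including vehicle replicate 2 and 48 h replicate 5, whose titles carry the same ID number. Exon and UTR annotation on mm9 was not used here.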

Additional observations from a re-analysis of the deposited data

Results flagged for a closer look

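In 7 of 108 sets of array values, for 35 genes and their mean in 3 groups, the highest or lowest array stood far from the others; chance gives about 1 such set in 20. Mki67 was at 0.42 in vehicle replicate 6, with the next lowest vehicle array at 0.86. At 48 h, replicate 4 was lowest for Mad2l1, at -0.91 against 0.10 for the next array, and for Cenpf, at -1.04 against -0.57. At 10 days, Ndc80 was at -1.17 in replicate 1 against -0.61, and Cenpe at -0.61 in replicate 2 against 0.11. In 10 days replicate 3, Kif2c was highest, at 0.71 against 0.55, and Ect2 was highest, at -1.28 against -1.97. The arrays lowest in Mad2l1, Cenpf, Ndc80 and Cenpe are those with the lowest means over all 35 genes.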

How the results depend on the processing

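No member passed the threshold under any alternative, and the smallest adjusted p was 0.597 (limma). The 10 day and the 10 day against 48 h medians were below 0 under every alternative run, but within slide 2 the 10 day median (-0.040) was not below that of all genes (-0.050); the 48 h median was above 0 with median scaling (0.022), within slide 2 (0.050), without vehicle replicate 1 (0.039) and without 48 h replicate 4 (0.044). Within slide 1 the median was -0.376 at 48 h and -0.630 at 10 days. Within slide 2, 12 members were below 0 at 48 h and 20 at 10 days, where 54.2% and 55.8% of all genes were. Leaving out 1 array at a time gave 14 to 28 members below 0 at 48 h, 28 to 34 at 10 days and 22 to 31 for 10 days against 48 h. Of all genes, 49.6% to 56.5%, 48.1% to 55.9% and 46.5% to 52.9% were below 0 in those fits.

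For the named members, 42 of 737 values under an alternative changed sign, none of them past the threshold in either fit: 32 at 48 h, 3 at 10 days and 7 for 10 days against 48 h. At 48 h, Aurka and Cdc20 were both 0.03 with median scaling, and 0.00 and 0.01 with normexp. With the mean of all probes Top2a was 0.03 and Ccnb1 0.02. With slide as a block Mki67 was -0.02 and Aurka 0.02. Within slide 1 Foxm1 was -0.22. Within slide 2, Mki67 was -0.01, Top2a 0.16, Cdk1 0.11, Ccnb1 0.13, Aurka 0.01, Cdc20 0.01, Tpx2 0.06 and Nusap1 0.03 at 48 h, and Cdk1 0.10, Aurka 0.14 and Foxm1 0.02 at 10 days. For 10 days against 48 h, Plk1 was 0.03 with slide in the model and 0.28 on slide 2 alone, where Aurka and Bub1b were both 0.13. Slide 2 holds 1 array at 48 h and slide 1 holds 1 vehicle array, so values within a slide rest on single arrays there. Leaving out 1 array, the 48 h values ran from -0.01 to 0.16 for Mki67, -0.12 to 0.06 for Top2a, -0.25 to 0.04 for Cdk1, -0.19 to 0.05 for Ccnb1, -0.12 to 0.05 for Aurka, -0.10 to 0.05 for Cdc20 and -0.04 to 0.15 for Foxm1, and Plk1 ran from -0.08 to 0.07 for 10 days against 48 h. The cause of these changes was not tested.

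No paired analysis was possible because replicate numbers were given in accession order and the groups share 1 ID number, that in the titles of vehicle replicate 2 and 48 h replicate 5. Signal over background was no limit, since every chosen probe was well above background on 16 of 16 arrays.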
